A study of Caenorhabditis elegans with 24 samples.

Results

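The genes *rhr-1*, *glt-1*, *nrf-6*, *gem-1* and *F16B4.4* of *C. elegans* were described here across 4 genotypes, with and without heat-shock. They were chosen because each had a lower level after heat-shock in all 4 genotypes and because they were described as membrane protein genes. They make up 5 of the 46934 genes in the deposited table and 5 of the 15256 genes that had enough reads to be tested. The heat-shock comparison chose them, so their fall with heat-shock is given as a description, without a test. *rhr-1*, *glt-1*, *nrf-6* and *gem-1* belong to families of membrane proteins. *F16B4.4* carried only a sequence name in the annotation, and the membrane label was not checked for it.

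Whole animals were collected at day 1 of adulthood, about 800 to a sample, after growth at 20 °C on HT115 bacteria carrying the empty vector pL4440. The genotypes were N2 (the wild-type), *hsf-1FL* (the full-length line, which overexpresses full-length *hsf-1* in neurons), *hsf-1CTD* (the CTD line, which overexpresses in neurons an *hsf-1* without its C-terminus) and the mutant *hsf-1(sy441)*, whose HSF-1 lacks its C-terminus. HSF-1 is the transcription factor that drives the heat-shock response. Both transgenes were driven by the neuronal *rab-3* promoter, and their animals also carried their own *hsf-1*, whereas in *hsf-1(sy441)* the altered protein was the animals' own in every tissue. For each genotype, 3 libraries came from untreated (UT) animals and 3 from heat-shocked (HS) animals, which spent 2 h at 34 °C and recovered for 1 h at 20 °C. The 24 libraries were made from polyA RNA of whole animals, so that fewer cells of a type and less RNA per cell cannot be told apart.

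Membrane transporters and channels move ions, nutrients and signalling molecules across cell membranes. *rhr-1* encodes a protein of the Rh family, whose members conduct ammonia across membranes. *glt-1* encodes a glutamate transporter that uses the sodium gradient to take up glutamate and is known from body wall muscle and hypodermis. *nrf-6* encodes a protein with many membrane passes of the acyltransferase-3 family, and its mutants resist the contraction of the nose muscles that fluoxetine causes and lay eggs poor in yolk. *gem-1* encodes a protein related to the monocarboxylate transporters of the SLC16A group, found through its effect on mutants of *gon-2*, a TRPM channel needed for the growth of the gonad.

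The 5 genes lie apart in the genome. On WBcel235, *rhr-1* (WBGene00004358) spans V:5428160-5430431 on the plus strand with 6 exons and 1389 coding bases. *glt-1* (WBGene00001620) spans X:3496026-3499169 on the plus strand, with 2 transcripts of 8 and 9 exons. *nrf-6* (WBGene00003813) spans II:8028953-8032708 on the minus strand with 13 exons and 2466 coding bases. These 3 genes and *F16B4.4* overlapped no exon of another annotated gene. *gem-1* (WBGene00008214) spans X:13371542-13376992 on the minus strand with 10 exons and 2313 coding bases, and shares 34 exon bases with *C49F8.14*, a gene on the same strand that had 0 counts in the 24 libraries. *F16B4.4* (WBGene00017506) is the shortest of them, at V:1594019-1594673 on the plus strand with 2 exons and 273 coding bases.

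Libraries held between 11215696 and 19794446 counts, with a median of 14946351.5. Levels are given in CPM, the usual unit of counts scaled by library size. *hsf-1* itself had a mean of 137 CPM ± 13.3 (SD, n = 3) in untreated N2 and of 74.7 CPM ± 26.8 (SD, n = 3) in untreated *hsf-1(sy441)*, with no overlap between them. In the lines that carry a transgene, its range was 146 to 154 CPM (*hsf-1FL*) and 137 to 170 CPM (*hsf-1CTD*) untreated, which overlapped the 125 to 151 CPM of N2, and the ranges of both also overlapped that of N2 after heat-shock. Markers of body wall muscle, hypodermis, intestine, neurons and germ line, 6 genes each, were detected in every condition. Heat-shocked *hsf-1(sy441)* replicate 3 stood apart, with the highest summed level of the muscle markers (14540 CPM) and of the hypodermis markers (8672 CPM) of the 24 libraries. Untreated *hsf-1(sy441)* replicate 3 was likewise the highest of its condition for both sums (9259 and 5421 CPM). The deviations of the pair from their condition means over all genes tested had an r of 0.81. The heat-shock differences of the mutant and its differences from N2 are also given without the heat-shocked library alone. The untreated one was kept in those fits.

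*rhr-1* had the highest mean of the 5 genes per base of transcript in untreated N2, with a range that overlapped that of *F16B4.4*. Its level there was 106, 111 and 131 CPM in the untreated replicates and 41.8, 24.4 and 35.1 CPM in the heat-shocked replicates. In *hsf-1FL*, the untreated replicates had 132, 122 and 118 CPM and the heat-shocked replicates 28.2, 30.4 and 26.3 CPM. In *hsf-1CTD*, they had 140, 118 and 141 CPM untreated and 28.6, 28.2 and 31.9 CPM after heat-shock. The untreated libraries of these 3 genotypes were all above 100 CPM and the heat-shocked ones all below 42 CPM. In *hsf-1(sy441)*, the untreated replicates had 133, 193 and 198 CPM and the heat-shocked replicates 38.2, 47.1 and 68.3 CPM. Heat-shocked *rhr-1* thus kept between 22.2% (*hsf-1CTD*) and 29.3% (*hsf-1(sy441)*) of the untreated mean, and the untreated and heat-shocked libraries did not overlap in any genotype. The log2(fold-change) was -1.78 (SE 0.20) in N2, -2.13 (SE 0.20) in the full-length line, -2.17 (SE 0.20) in the CTD line and -1.77 (SE 0.20) in the mutant, where it was -2.06 without heat-shocked replicate 3.

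*glt-1* had the widest range of heat responses among the genotypes. In N2, its level was 50.5, 85.4 and 68.0 CPM in the untreated replicates and 26.0, 17.4 and 18.8 CPM in the heat-shocked replicates. In *hsf-1FL*, it was 76.5, 68.8 and 58.5 CPM untreated and 18.4, 20.9 and 12.5 CPM after heat-shock. In *hsf-1CTD*, it was 93.2, 83.4 and 62.3 CPM untreated and 18.9, 10.03 and 9.45 CPM after heat-shock. Heat-shocked *hsf-1CTD* replicates 2 and 3 had the lowest *glt-1* levels of all libraries. In *hsf-1(sy441)*, the level was 136, 153 and 134 CPM untreated, above every other library, and 30.5, 28.8 and 46.1 CPM after heat-shock. The glutamate transporter kept 30.5% of its untreated mean in N2, 25.4% in the full-length line, 16.1% in the CTD line and 25.0% in the mutant, with no overlap in any genotype. The log2(fold-change) was -1.71 (SE 0.27), -1.98 (SE 0.27), -2.64 (SE 0.28) and -2.002 (SE 0.27), in the same order. Without heat-shocked replicate 3, the mutant's value was -2.27.

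*nrf-6* fell to a similar heat-shocked level in 3 of the genotypes. In N2, the untreated replicates had 78.3, 102 and 85.5 CPM and the heat-shocked replicates 22.6, 28.9 and 22.4 CPM. In *hsf-1FL*, the untreated replicates spread widely, with 161, 134 and 81.0 CPM, and the heat-shocked replicates had 28.9, 31.1 and 20.6 CPM. In *hsf-1CTD*, the levels were 115, 113 and 72.9 CPM untreated and 31.7, 27.8 and 23.9 CPM after heat-shock. In both transgenic lines replicate 3 had the lowest *nrf-6*, untreated and heat-shocked. In *hsf-1(sy441)*, the untreated replicates had 127, 128 and 186 CPM, and the heat-shocked replicates 30.0, 29.9 and 75.3 CPM. Replicates 1 and 2 of heat-shocked *hsf-1(sy441)* lay within the range of the other heat-shocked libraries, and replicate 3 reached the level of the lowest untreated *hsf-1CTD* library. The log2(fold-change) was -1.84 (SE 0.32) in N2, -2.22 (SE 0.32) in the full-length line, -1.85 (SE 0.32) in the CTD line and -1.70 (SE 0.32) in the mutant. Without heat-shocked *hsf-1(sy441)* replicate 3, the last value was -2.32.

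*gem-1* was the least abundant, with between 14 and 238 reads in a library. In N2, its level was 10.3, 9.88 and 7.50 CPM in the untreated replicates and 2.48, 2.85 and 2.20 CPM after heat-shock. In *hsf-1FL*, it was 14.0, 8.94 and 6.12 CPM untreated and 2.53, 1.82 and 1.41 CPM after heat-shock. In *hsf-1CTD*, it was 10.3, 11.2 and 8.41 CPM untreated and 2.57, 1.09 and 1.45 CPM after heat-shock. Every heat-shocked library was below 4 CPM and every untreated one above 6 CPM, *hsf-1(sy441)* included, where the level was 13.7, 10.4 and 14.4 CPM untreated and 3.18, 3.83 and 3.89 CPM after heat-shock. The share of the untreated mean that remained was 27.3% in N2, 19.8% in the full-length line, 17.1% in the CTD line and 28.4% in the mutant. The log2(fold-change) was -1.87 (SE 0.33), -2.33 (SE 0.34), -2.55 (SE 0.34) and -1.82 (SE 0.33), in the same order. Leaving out heat-shocked replicate 3 gave -1.89 in the mutant.

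*F16B4.4* had the smallest heat-shock difference of the 5 genes in N2, *hsf-1FL* and *hsf-1(sy441)*. In N2, its level was 30.7, 42.1 and 21.3 CPM in the untreated replicates and 13.5, 8.98 and 6.95 CPM in the heat-shocked replicates. In *hsf-1FL*, it was 26.2, 35.1 and 20.3 CPM untreated and 9.22, 8.56 and 8.38 CPM after heat-shock. In *hsf-1CTD*, it was 36.0, 39.1 and 21.5 CPM untreated and 8.12, 9.18 and 7.32 CPM after heat-shock. Heat-shocked *hsf-1FL* and *hsf-1CTD* replicates lay close together, between 7.32 and 9.22 CPM. In *hsf-1(sy441)*, the level was 72.9, 61.7 and 85.3 CPM untreated and 21.4, 20.0 and 32.2 CPM after heat-shock. The heat-shocked *hsf-1(sy441)* libraries thus overlapped the untreated libraries of the other genotypes, which began at 20.3 CPM. The log2(fold-change) was -1.68 (SE 0.29) in N2, -1.64 (SE 0.29) in the full-length line, -1.97 (SE 0.30) in the CTD line and -1.58 (SE 0.29) in the mutant, or -1.85 there without heat-shocked replicate 3.

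**Figure D1:**
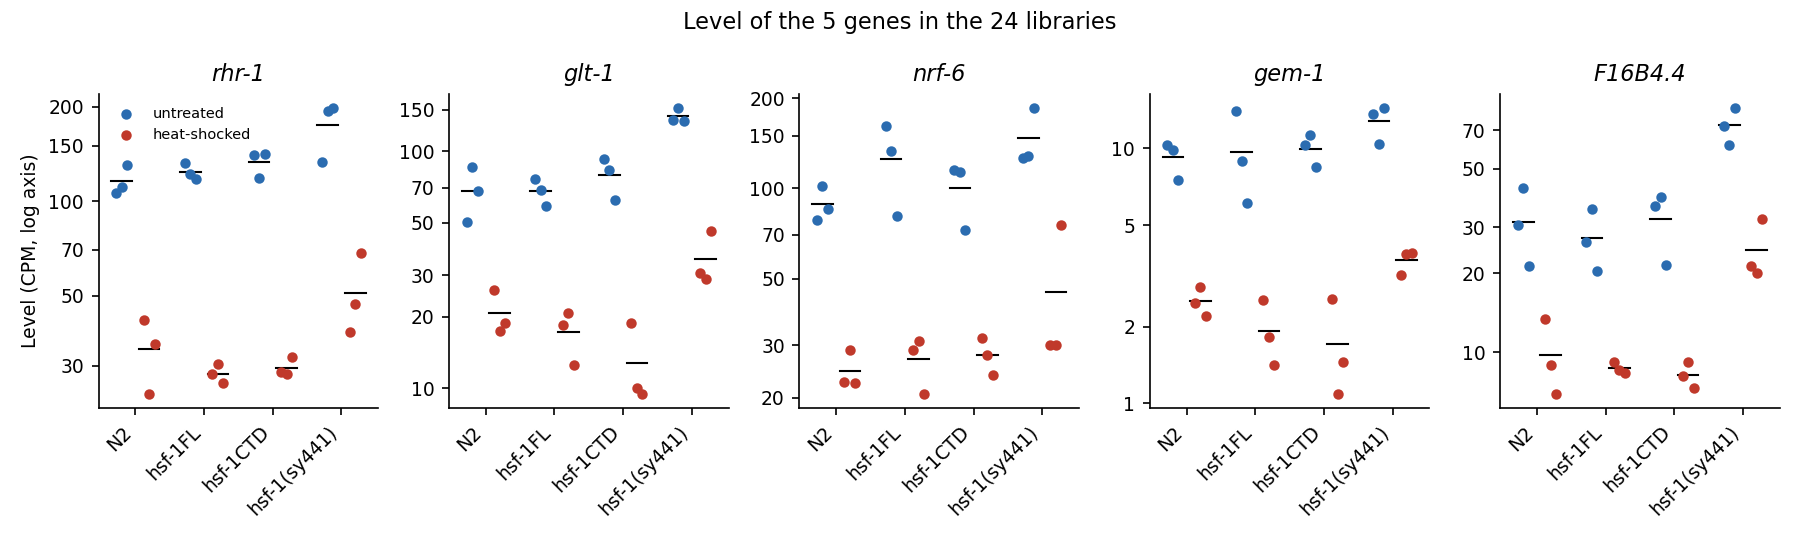
Level of each gene in the 24 libraries, in CPM on a log axis, by genotype. Each point is a library (blue untreated, red heat-shocked) and each bar the mean of 3. Within each genotype the red points lie below the blue points for all 5 genes, and untreated *hsf-1(sy441)* has the highest mean in each panel.

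Over genes and genotypes, the log2(fold-change) lay between -2.64 (*glt-1* in *hsf-1CTD*) and -1.58 (*F16B4.4* in *hsf-1(sy441)*), which left between 16.1% and 33.4% of the untreated mean. The median over the 5 genes was -1.78 in N2, -2.13 in the full-length line, -2.17 in the CTD line and -1.77 in the mutant (-2.06 without heat-shocked replicate 3), where the medians of all genes tested were 0.02, -0.03, -0.02 and 0.06. Every heat-shocked library was below every untreated library of its genotype in 20 of 20 pairs of gene and genotype. Among all genes tested, the same was found for 6.46% in N2, 13.5% in the full-length line, 15.7% in the CTD line and 9.65% in the mutant, and for 1.66% in all 4 genotypes.

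The heat responses of the genotypes were set beside that of N2 gene by gene. *glt-1* had the largest difference, -0.93 (SE 0.38) for *hsf-1CTD*, which is also the largest beside its standard error, and *gem-1* came next with -0.67 (SE 0.46) in the same line. The other differences for *hsf-1CTD* were between -0.39 (SE 0.28, *rhr-1*) and -0.01 (SE 0.44, *nrf-6*). For *hsf-1FL*, they ran from -0.45 (SE 0.45, *gem-1*) to 0.03 (SE 0.41, *F16B4.4*). For *hsf-1(sy441)*, they ran from -0.29 (SE 0.37, *glt-1*) to 0.14 (SE 0.44, *nrf-6*), and all 5 were within their standard error of 0. These last values moved when heat-shocked *hsf-1(sy441)* replicate 3 was left out, to -0.57 (SE 0.38) for *glt-1*, -0.49 (SE 0.35) for *nrf-6*, -0.30 (SE 0.25) for *rhr-1*, -0.19 (SE 0.41) for *F16B4.4* and -0.04 (SE 0.49) for *gem-1*. That fit kept untreated *hsf-1(sy441)* replicate 3, which was above its condition mean by 0.18 on average over the 5 genes on the log2 scale. How much of the move came from keeping it was not tested. Since the heat comparisons chose the genes, these differences are given without a test.

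**Figure D2:**
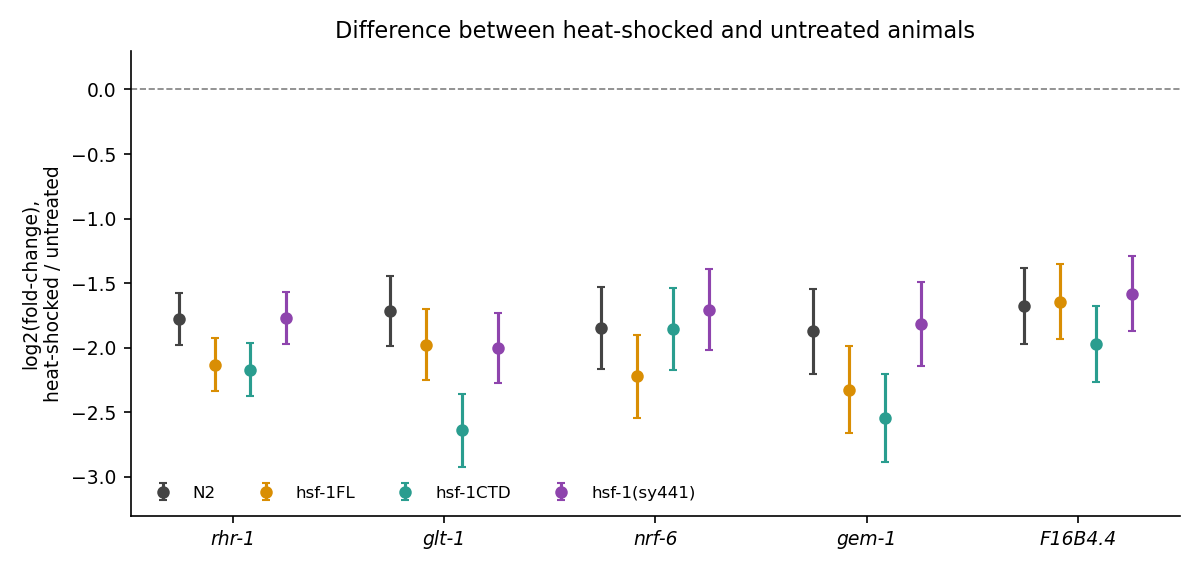
Heat-shocked against untreated log2(fold-change) of each gene in the 4 genotypes. Points are edgeR estimates from 3 libraries a condition and bars are ± 1 standard error. All values lie between -2.64 and -1.58, and the lowest is *glt-1* in *hsf-1CTD*.

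A gene was called a DEG (differentially expressed gene) at an adjusted P-value under 0.01 in the quasi-likelihood test of edgeR. By that rule, 5 of 5 of the genes were called lower with heat-shock in each genotype. They were chosen for their fall in these same comparisons, so the calls are a description. Of all genes tested, 0.131% were called lower in N2, 0.321% in the full-length line, 0.354% in the CTD line and 0.511% in the mutant. A lower level of any size in all 4 genotypes was found for 3981 of the 15256 genes tested. In all 4 genotypes 8 genes, or 0.0524%, were called lower. The other three were a mitochondrial gene listed as WBGene00010963, the C-type lectin gene *clec-218* and the Argonaute gene *sago-1*. The largest adjusted P-value over the 4 genotypes was used to place genes beside the threshold. The choice of the 5 genes names no such threshold. Among the 5 genes, *gem-1* was nearest to the threshold with 0.00414, and *sago-1* was the last gene inside with 0.00901. Just outside were *htrl-1* (0.0125), *Y37D8A.3* (0.0134) and *Y106G6H.1* (0.0135), whose log2(fold-change) was no closer to 0 than -1.21 in any genotype.

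Fewer of the 5 genes passed that rule in N2 when any of its libraries was left out. The same was found for some libraries of the mutant. The log2(fold-change) stayed below 0 throughout. In N2, 3 genes passed without heat-shocked replicate 1, 1 without heat-shocked replicate 2 and 2 without heat-shocked replicate 3. Leaving out the untreated N2 replicates 1, 2 or 3 left 3, 1 and 3 genes. In *hsf-1(sy441)*, 2 genes, *rhr-1* and *glt-1*, passed without heat-shocked replicate 1, without heat-shocked replicate 2 or without untreated replicate 3. At least 4 passed in *hsf-1FL* and *hsf-1CTD* whichever library was left out. When only the 6 libraries of a genotype were fitted, 0 passed in N2 and 0 in *hsf-1(sy441)*. All these fits had fewer libraries than the main fit. The share of all genes that they called lower is not given, so these counts cannot be set beside all genes.

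Per kilobase of summed exons, which allows genes to be compared, *rhr-1* (71.1 CPM per kb) and *F16B4.4* (62.0 CPM per kb) had the highest levels in untreated N2. Their ranges overlapped, with 65.2 to 80.1 CPM per kb for *rhr-1* and 42.2 to 83.2 CPM per kb for *F16B4.4*. *glt-1* (36.6 CPM per kb) and *nrf-6* (34.4 CPM per kb) came next and did not differ beyond their spread, and *gem-1* was far lower at 3.18 CPM per kb. In untreated *hsf-1(sy441)* the same pair had the highest means, with 145 CPM per kb for *F16B4.4* and 107 CPM per kb for *rhr-1*. Across the 8 conditions, the mean level of every gene was highest in untreated *hsf-1(sy441)*, followed by the other untreated conditions in an order that differed from gene to gene and stayed within their overlapping ranges. The untreated range of *hsf-1(sy441)* lay above all others for *glt-1* and *F16B4.4* and overlapped the next for *rhr-1*, *nrf-6* and *gem-1*. Among the heat-shocked conditions, *hsf-1(sy441)* came first for every gene, with a range that overlapped others for *rhr-1* and *nrf-6*. The lowest condition was heat-shocked *hsf-1FL* for *rhr-1* (28.3 CPM ± 2.02, SD, n = 3), heat-shocked N2 for *nrf-6* (24.6 CPM ± 3.68, SD, n = 3) and heat-shocked *hsf-1CTD* for *glt-1* (12.8 CPM ± 5.29, SD, n = 3), *gem-1* (1.70 CPM ± 0.772, SD, n = 3) and *F16B4.4* (8.20 CPM ± 0.934, SD, n = 3), and in each case its range overlapped that of the next condition.

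Next, *hsf-1(sy441)* was compared with N2 of the same treatment, a comparison that the choice of genes did not use. Without heat-shock, all 5 genes had higher means in the mutant, by a log2(fold-change) of 1.22 (SE 0.28) for *F16B4.4*, 1.05 (SE 0.26) for *glt-1*, 0.73 (SE 0.31) for *nrf-6*, 0.59 (SE 0.19) for *rhr-1* and 0.48 (SE 0.31) for *gem-1*. *F16B4.4* had a mean of 31.4 CPM ± 10.4 (SD, n = 3) in N2 and 73.3 CPM ± 11.8 (SD, n = 3) in the mutant. *glt-1* had 68.0 CPM ± 17.5 (SD, n = 3) and 141 CPM ± 10.3 (SD, n = 3). The mutant libraries lay above the N2 libraries for 5 of 5 genes, a pattern shared by 15.8% of all genes tested. None of the 5 passed the threshold in edgeR, where the adjusted P-value was 0.0245 for *F16B4.4*, 0.0309 for *glt-1*, 0.0592 for *rhr-1*, 0.118 for *nrf-6* and 0.328 for *gem-1*. In that comparison 0.492% of all genes were called higher. At an unadjusted P-value under 0.05, 4 of the 5 were higher, where 16.2% of all genes were. DESeq2 called *F16B4.4* (adjusted P-value 0.000747) and *glt-1* (adjusted P-value 0.00161), and called 6.02% of all genes higher.

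After heat-shock, the mutant again had higher means for all 5 genes. The log2(fold-change) was 1.32 (SE 0.29) for *F16B4.4*, 0.87 (SE 0.31) for *nrf-6*, 0.76 (SE 0.27) for *glt-1*, 0.60 (SE 0.20) for *rhr-1* and 0.53 (SE 0.32) for *gem-1*. The mutant libraries lay above the N2 libraries for 4 genes, a pattern shared by 11.6% of all genes tested. The exception was *rhr-1*, for which mutant replicate 1 (38.2 CPM) was below N2 replicate 1 (41.8 CPM). Again none of the 5 passed the threshold in edgeR, with an adjusted P-value of 0.0156 for *F16B4.4* and between 0.0690 and 0.326 for the others, where 0.682% of all genes were called higher. At an unadjusted P-value under 0.05, 4 of the 5 were higher, where 16.6% of all genes were. DESeq2 called *F16B4.4* (adjusted P-value 0.000570) and called 5.47% of all genes higher.

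These differences from N2 moved with the libraries and with the model. Without heat-shocked *hsf-1(sy441)* replicate 3, the heat-shocked difference was 0.27 for *nrf-6*, 0.32 for *rhr-1*, 0.50 for *glt-1*, 0.46 for *gem-1* and 1.06 for *F16B4.4*, with an adjusted P-value of 0.0999 for the last. Without the same library, *F16B4.4* passed the threshold in the untreated comparison (adjusted P-value 0.00935). *F16B4.4* also passed in the heat-shocked comparison without heat-shocked N2 replicate 1, and those are the only calls among the 24 fits that each left out a library. The share of all genes called higher in those comparisons is not given for either fit, so the calls cannot be set beside all genes. With surrogate variables in edgeR, which take up variation shared by many genes, the untreated difference was 0.05 for *nrf-6*, 0.04 for *gem-1*, 0.36 for *rhr-1*, 0.68 for *glt-1* and 0.80 for *F16B4.4*, and 0 of the 5 were called, where 0.564% of all genes were called higher.

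**Figure D3:**
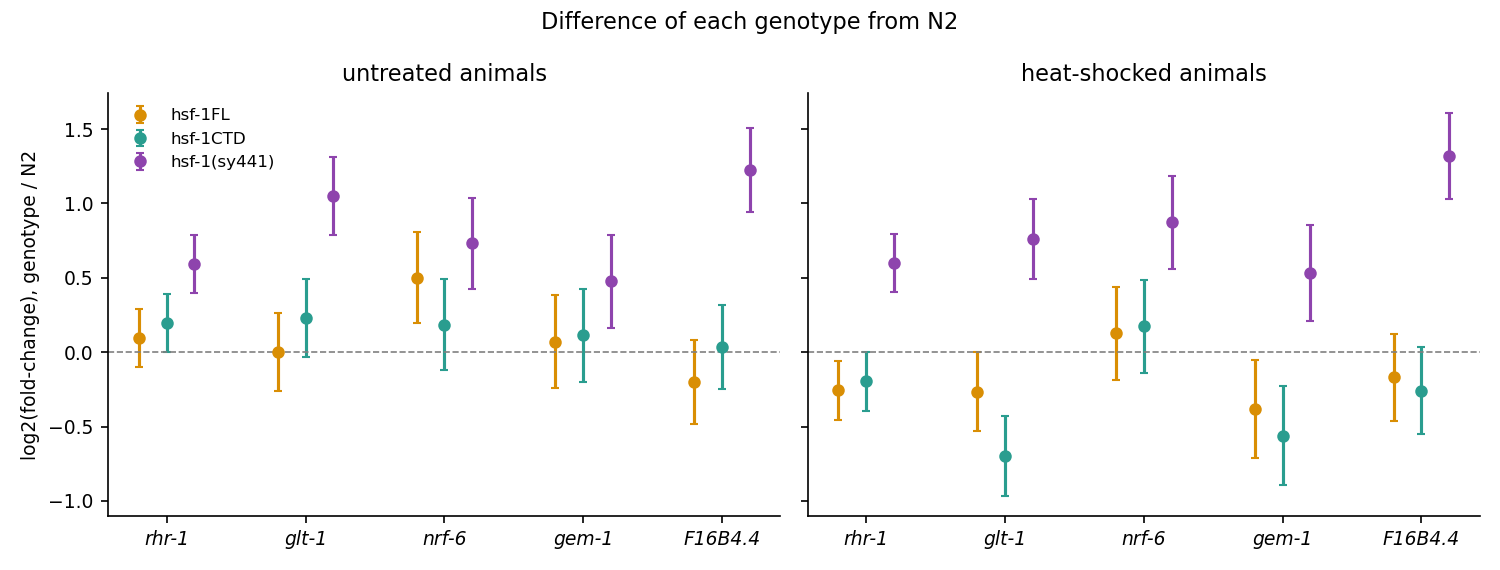
Log2(fold-change) of each genotype against N2, for untreated animals (left) and heat-shocked animals (right). Points are edgeR estimates from 3 libraries a condition and bars are ± 1 standard error. The *hsf-1(sy441)* points lie above 0 for all 5 genes under both treatments, and none passed the threshold.

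Several sums of tissue markers also differed between these genotypes, and that of the neuron markers did not beyond its range. The summed level of 6 body wall muscle markers (*myo-3*, *unc-54*, *unc-15*, *lev-11*, *unc-27* and *unc-89*) ranged from 2681 to 3730 CPM in untreated N2 and from 5452 to 9259 CPM in untreated *hsf-1(sy441)*. After heat-shock it ranged from 3258 to 5254 CPM in N2 and from 6648 to 14540 CPM in the mutant. The 6 hypodermis markers (*dpy-7*, *col-19*, *rol-6*, *bli-1*, *dpy-13* and *col-140*) ranged from 1199 to 2328 CPM in untreated N2 and from 2845 to 5421 CPM in the untreated mutant. After heat-shock the hypodermis sums overlapped, at 864, 3457 and 3136 CPM in N2 and 2848, 4642 and 8672 CPM in the mutant. All 12 were detected in each condition. The summed level of the 6 germ line markers ranged from 4678 to 5591 CPM in untreated N2 and from 3802 to 4250 CPM in the untreated mutant, with a log2(fold-change) of single markers from -0.56 to 0.33. After heat-shock the germ line sums overlapped, with 3673 to 5546 CPM in N2 and 3693 to 4187 CPM in the mutant. The 6 intestine markers ranged from 504 to 654 CPM in untreated N2 and from 723 to 1121 CPM in the untreated mutant. The sums of the 6 neuron markers overlapped, with 238 to 332 CPM in untreated N2 and 246 to 261 CPM in the untreated mutant. They also overlapped after heat-shock, with 193 to 361 CPM in N2 and 216 to 311 CPM in the mutant. The largest ratio was that of the sperm markers, the major sperm protein genes, whose near-identical copies make single members uncertain. Their sum ranged from 1.46 to 9.72 CPM in untreated N2 and from 32.5 to 1147 CPM in the untreated mutant, and it was 21.5, 102 and 1418 CPM in the heat-shocked mutant. Sperm markers were also between 46.9 and 420 CPM in untreated *hsf-1FL*, and between 5.65 and 12.1 CPM in untreated *hsf-1CTD*. The part of these tissues in the higher levels of the 5 genes in *hsf-1(sy441)* was not tested.

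The marker sums were then compared between untreated and heat-shocked animals. The muscle sum in N2 had a median of 3122 CPM untreated and 3843 CPM heat-shocked. In *hsf-1FL* the medians were 3163 and 2938 CPM, in *hsf-1CTD* 3303 and 2576 CPM and in the mutant 5632 and 7766 CPM. The hypodermis sum had medians of 1560 and 3136 CPM in N2, 2126 and 2142 CPM in *hsf-1FL*, 2141 and 1830 CPM in *hsf-1CTD* and 4934 and 4642 CPM in the mutant, and the germ line sum had 5459 and 5195 CPM in N2. The summed level of the 6 intestine markers in N2 was between 504 and 654 CPM untreated and between 213 and 341 CPM heat-shocked, and most of that difference lay in the actin gene *act-5* and in *pept-1*, the peptide transporter of the intestine. In *hsf-1(sy441)* their sum was between 723 and 1121 CPM untreated and 302, 322 and 603 CPM after heat-shock, with replicate 3 again the highest. The part of these tissues in the fall of the 5 genes was not tested.

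**Figure D4:**
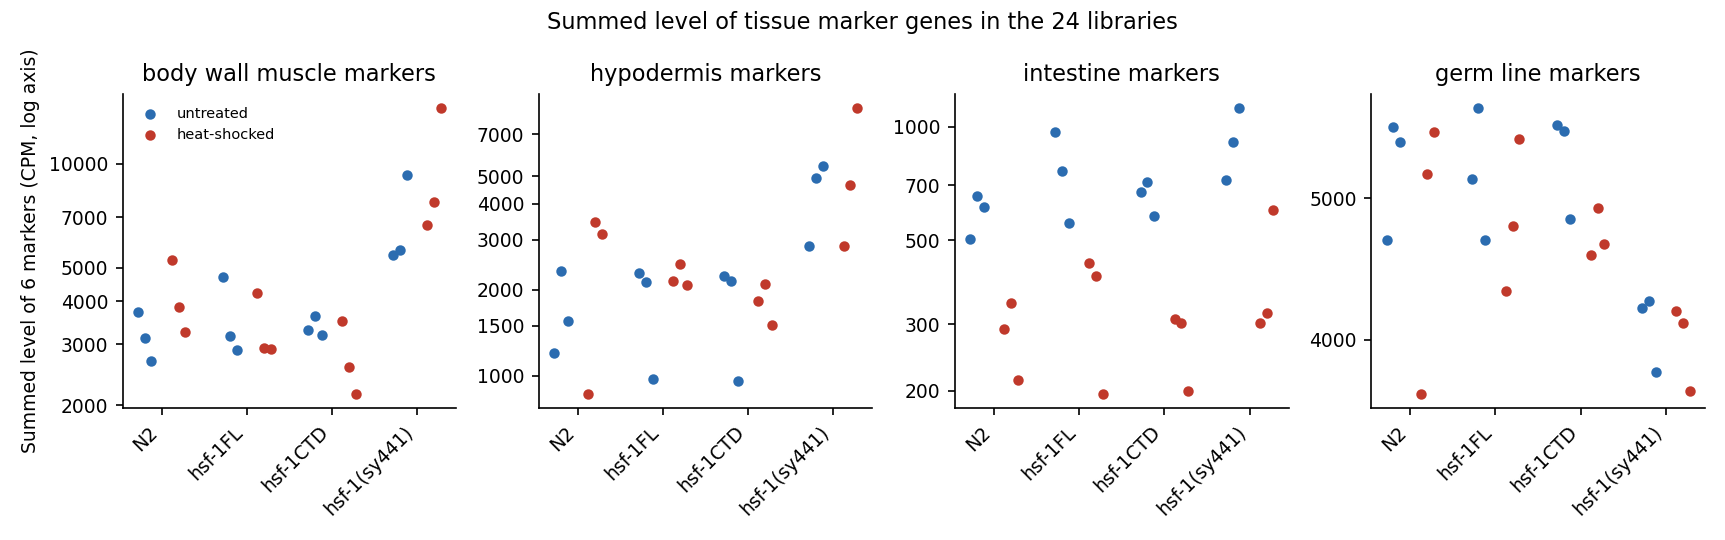
Summed level of 6 marker genes each for body wall muscle, hypodermis, intestine and germ line, in CPM on a log axis. Each point is a library (blue untreated, red heat-shocked). The muscle sum is higher in *hsf-1(sy441)* than in N2, and the intestine sum is lower after heat-shock in each genotype. Single intestine markers differed widely in size.

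The lines with neuronal *hsf-1* were compared with N2 in the same way. In untreated animals, *hsf-1FL* differed from N2 by a log2(fold-change) between -0.20 (SE 0.28, *F16B4.4*) and 0.50 (SE 0.31, *nrf-6*), and *hsf-1CTD* by between 0.04 (SE 0.28, *F16B4.4*) and 0.23 (SE 0.26, *glt-1*). After heat-shock, *hsf-1FL* differed by between -0.38 (SE 0.33, *gem-1*) and 0.13 (SE 0.31, *nrf-6*). The largest difference was that of *glt-1* in heat-shocked *hsf-1CTD*, -0.70 (SE 0.27), and it had an unadjusted P-value of 0.0185 and an adjusted P-value of 1.00 in edgeR. It was the only one of the 20 values with an unadjusted P-value under 0.05, which 7.44% (untreated) and 6.35% (heat-shocked) of all genes had in *hsf-1FL* and 1.2% and 3.7% in *hsf-1CTD*. None of the 5 genes was called in these 4 comparisons by edgeR or by DESeq2, and the lowest adjusted P-value in edgeR was 0.989. Among all genes, edgeR called 0.0197% in both *hsf-1FL* comparisons, 0.0197% in untreated *hsf-1CTD* and 0.0131% in heat-shocked *hsf-1CTD*, and DESeq2 called 0.564% and 0.0983% in *hsf-1FL* and 0.0852% and 0.0918% in *hsf-1CTD*, untreated and heat-shocked. The libraries overlapped those of N2 for every one of the 5 genes, while 13.4% and 9.47% of all genes had no overlap in *hsf-1FL* and 6.39% and 7.2% in *hsf-1CTD*.

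The deviations of replicates from their condition were then compared across the 5 genes. After the mean of each condition was removed from the log2 CPM, Pearson's r over the 24 libraries was between -0.03 (*rhr-1* with *gem-1*) and 0.64 (*glt-1* with *nrf-6*) for the 10 pairs, with a median of 0.45. Each of the 5 genes had a median r with all other genes between 0.02 and 0.09, but its r with other genes spread widely, with a 95th percentile between 0.50 (*glt-1*) and 0.70 (*nrf-6*). Of the 10 pairs, 6 had an r between the 5th and 95th percentiles of both genes. These values are descriptions, since each pair of genes was measured in the same libraries. Heat-shocked *hsf-1(sy441)* replicate 3 was above its condition mean for all 5 genes, by 0.46 on average on the log2 scale, and so was untreated *hsf-1CTD* replicate 1, by 0.16. Below it for all 5 were *hsf-1FL* replicate 3, both untreated (-0.36 on average) and heat-shocked (-0.26), and heat-shocked *hsf-1(sy441)* replicate 1 (-0.27).

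Relatives of the named genes were then examined in the same heat-shock comparisons, through a list of 80 genes, of which 45 had enough reads. It held the other glutamate transporters, the Rh and ammonium transporters, the acyltransferase-3 family, the *mct* genes and *slcf-1* (monocarboxylate transporter-like), the TRPM channels *gon-2*, *gtl-1* and *gtl-2*, and *nrf-5*, a lipid-binding protein gene that shares the fluoxetine phenotype of *nrf-6*. A single relative was called in a single genotype in edgeR, and the number depended on the model. This was *mct-6*, with 96.5, 95.3 and 158 CPM in untreated and 49.2, 35.2 and 51.3 CPM in heat-shocked *hsf-1(sy441)* (log2(fold-change) -1.37, SE 0.23, adjusted P-value 0.00184). In edgeR, 0, 0, 0 and 1 of the 45 were called in N2, the full-length line, the CTD line and the mutant, where 0.669%, 0.819%, 0.964% and 1.72% of all genes were called in either direction. At an unadjusted P-value under 0.05, there were 13, 19, 16 and 10 of the 45, of which 10, 14, 13 and 8 were lower, where 12.2%, 14.7%, 16.6% and 19.4% of all genes passed in either direction. DESeq2 called 1, 4, 4 and 3, and 2.4%, 3.23%, 3.74% and 4.9% of all genes. With surrogate variables, edgeR called 5, 6, 6 and 5 of the 45, where it called 3.8%, 3.85%, 5.07% and 8.65% of all genes, and DESeq2 called 8, 12, 11 and 7, where it called 7.16%, 7.02%, 9.19% and 12.6%.

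The relatives were then described by family. They were not chosen by their heat-shock difference, as the 5 genes were, so that no test sets their sizes against those of the 5. Where a relative lay below one of the 5, this is given as a description. The 5 other glutamate transporters had a median log2(fold-change) of -0.14 in N2, -0.44 in the full-length line, -0.42 in the CTD line and -0.34 in the mutant, and the lowest single value was -1.43. The 5 Rh and ammonium transporters had medians between -0.97 (*hsf-1CTD*) and -0.20 (N2). Within that family, *amt-4* had values from -2.67 to -1.90 without passing the threshold (adjusted P-value 0.0558 or more). Its heat-shocked libraries lay below the untreated ones in all 4 genotypes, as did those of the acyltransferase-3 genes *oac-53* and *oac-54*, and the 3 genes are named here after their values were seen. The 6 monocarboxylate transporter-like genes had medians between -1.15 and -0.70, and the 3 TRPM channel genes between -1.05 and -0.44. The 25 tested acyltransferase-3 genes had medians between -0.48 and -0.07 and ranged from -3.14 to 8.31. Some lay below *nrf-6* without passing the threshold, 3 of them in N2, 2 in the full-length line, 3 in the CTD line and 1 in the mutant. *oac-54* was among them in each genotype, with values from -2.59 to -2.01, and the lowest was *oac-58* in *hsf-1CTD* (-3.14, SE 0.91, adjusted P-value 0.0612). *nrf-5* had values between -0.21 and 0.23. Over all 45, the medians were -0.20, -0.44, -0.53 and -0.34 in N2, the full-length line, the CTD line and the mutant. A model that paired the libraries of a replicate number inside each genotype (a block) called 1, 7, 6 and 4 of the 45 in the same order, where it called 2.08%, 3.49%, 3.88% and 6.09% of all genes.

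**Figure D5:**
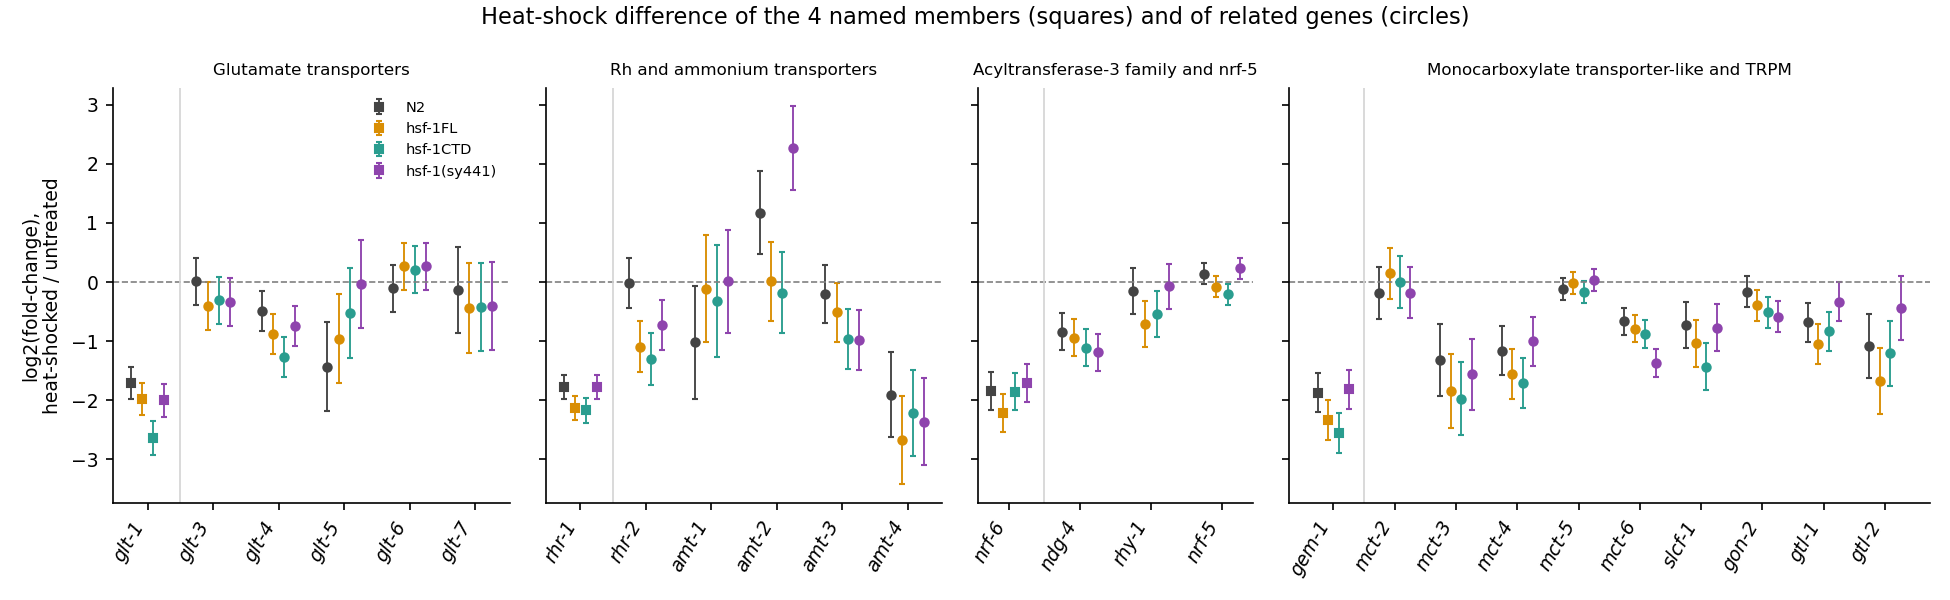
Heat-shocked against untreated log2(fold-change) of 4 of the genes (squares, left in each panel) and of their tested relatives other than the *oac* genes (circles), with ± 1 standard error. Colours are the genotypes. The squares were chosen by this comparison and the circles were not. *amt-4* lies below the square of its panel in each genotype, and the highest circle of that panel is *amt-2* in *hsf-1(sy441)* (2.26).

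Among 114 genes of other transporter families, chosen by the start of their names, 110 were tested. In edgeR, 0 were called in N2, 5 in the full-length line, 5 in the CTD line and 2 in the mutant, where 0.669%, 0.819%, 0.964% and 1.72% of all genes were called, and each of the transporter genes called was lower. *snf-3*, a betaine transporter gene, was called in 3 genotypes. Its level in *hsf-1CTD* was 23.0, 24.3 and 21.9 CPM untreated and 4.81, 3.58 and 5.03 CPM after heat-shock (log2(fold-change) -2.37, SE 0.33, adjusted P-value 0.000477). *pept-1* was called in *hsf-1FL* and *hsf-1CTD*, and in *hsf-1FL* it went from 178, 121 and 100 CPM to 11.2, 8.65 and 13.9 CPM (log2(fold-change) -3.56, SE 0.67, adjusted P-value 0.00609). The nucleoside transporter gene *ent-2* was called in the same lines, with a log2(fold-change) of -1.13 (SE 0.20) and -1.10 (SE 0.20). *vglu-3*, of the vesicular glutamate transporter family, was called in *hsf-1CTD* (-3.18, SE 0.55) and *hsf-1(sy441)* (-2.67, SE 0.52). *ent-4* and the sodium-calcium exchanger gene *ncx-7* were called in *hsf-1FL* alone, and the sulfate permease family gene *sulp-2* in *hsf-1CTD* alone. Whether those genotypes differ from the others in these genes was not tested.

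In N2, where edgeR without surrogate variables called none of the 110, all 7 of these transporter genes had a negative log2(fold-change), from -2.87 (*pept-1*, adjusted P-value 0.0222) to -0.77 (*ent-2*, adjusted P-value 0.0475). The adjusted P-values of the 7 in edgeR ran from 0.0146 (*vglu-3*) to 0.171 (*ncx-7*). These 7 are named because they were called lower in another genotype. The medians over the 110 were -0.19, -0.44, -0.53 and -0.35 in N2, the full-length line, the CTD line and the mutant, and 12 of the 110 had no overlap between untreated and heat-shocked libraries in all 4 genotypes with the heat-shocked lower. The corresponding number was 3 of the 45 relatives, and 1.66% of all genes tested. The block within each genotype called 9, 18, 18 and 17 of the 110, where it called 2.08%, 3.49%, 3.88% and 6.09% of all genes. With surrogate variables, edgeR called 13, 15, 16 and 19 of the 110, where it called 3.8%, 3.85%, 5.07% and 8.65% of all genes, and DESeq2 called 23, 24, 28 and 27, where it called 7.16%, 7.02%, 9.19% and 12.6%. Leaving out heat-shocked *hsf-1(sy441)* replicate 3 gave 2, 10, 11 and 14 in edgeR, where 1.04%, 1.63%, 1.88% and 3.94% of all genes were called. Other libraries lowered the counts. In *hsf-1FL*, 0 were called without heat-shocked replicate 2 or untreated replicate 1, and 1 or 2 when another of its libraries was left out. In *hsf-1CTD*, 1 was called without heat-shocked replicate 1, 2 without untreated replicate 1 and 3 when another of its libraries was left out. In *hsf-1(sy441)*, 0 were called without heat-shocked replicate 1 or 2 or without untreated replicate 2 or 3.

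Finally, the genes whose level followed each of the 5 most closely over the 24 libraries were listed, by Pearson's r of log2 CPM. They were *vglu-3* and WBGene00010963 for *rhr-1* (r = 0.965 and 0.964), and *htrl-1* and WBGene00010963 for *glt-1* (r = 0.961 and 0.959). *nrf-6* was followed by *F07A11.5* (r = 0.973) and *ptr-24* (r = 0.971), the second a Patched-related gene. For *gem-1* they were *htrl-1* (r = 0.953) and *mpst-3* (r = 0.950), and for *F16B4.4* they were *F19C6.4* (r = 0.961) and *ent-2* (r = 0.958). The 5 genes had r between 0.889 and 0.957 with one another. Since the 5 genes were lower with heat-shock in each genotype, r over all 24 libraries includes that difference.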

How the data were processed

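RNA of 24 samples of whole *C. elegans* was sequenced by the authors, 3 biological replicates for each of 8 conditions. Per the labels and the paper's methods, reads were trimmed with Trim Galore 0.6.7-1, aligned to WBcel235 with STAR 2.7.10a and counted with featureCounts of Subread 2.0.3. The deposited values are raw counts of reads per gene, without normalization. The strand setting is not given in the sources used here. Gene structures came from a later Ensembl annotation of the same genome, where the 5 genes have the same positions.

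The 5 genes and the lists were chosen with earlier results of these data known. Named in full are the 5 genes, the relatives and transporter genes called in any heat-shock comparison, the 2 genes nearest in pattern to each of the 5, and genes beside the threshold. Library totals were 11215696 to 19794446 counts. A gene was tested if 3 or more libraries held 10 or more counts of it, which 15256 did. Counts were scaled with TMM (factors 0.896 to 1.10) and fitted with edgeR 4.0.16 in R 4.3.3, with a mean for each condition over all 24 libraries, quasi-likelihood F-tests and Benjamini-Hochberg adjustment over all genes tested, at a threshold of 0.01. The study's methods name DESeq2 with sva, whose function and number of variables are not given in the sources used here, so these were alternatives (DESeq2 1.42.0, sva 3.50.0 with 3 surrogate variables). Standard errors were derived from each estimate and its F-statistic. The typical variation between replicates (common BCV) was 42.2%. On simulated data for *hsf-1(sy441)* against N2, untreated, edgeR called 29 of 50 genes raised by a log2(fold-change) of 2 and 14 of 50 raised by 1, among 15256 genes, with 0 false calls. Those counts were drawn independently for each gene, with 1 mean in all 8 conditions except for the changed genes. The data also hold heat-shock differences and deviations shared by many genes, so these numbers need not hold for them.

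Other alternatives were RLE, upper quartile or no scaling beyond library size, no filter beyond 1 count, a minimum of 10 counts in all libraries, models restricted to the libraries compared, a threshold of 0.05, a block for the replicate number, across or within genotypes, and leaving out each library. Same-numbered libraries deviated together (r above 0.1 for each number) in the heat-shock comparisons of N2, *hsf-1FL* and *hsf-1(sy441)*, in both comparisons of *hsf-1FL* with N2 and in heat-shocked *hsf-1CTD* against N2, though no source states what a number marks. In the heat-shock comparison of *hsf-1CTD*, r was -0.05, 0.20 and 0.27, and in that of *hsf-1(sy441)* it was 0.80, 0.25 and 0.81. 0 columns of values were left without a sample. Figures were drawn with matplotlib 3.10.9.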

Additional observations from a re-analysis of the deposited data

How the results depend on the processing

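No alternative turned a heat-shock difference of the 5 genes, which lay between -3.03 and -1.40 over 720 values. Heat-shocked against untreated, the genes called lower numbered 3 in N2 with 10 counts in every library, and 0, 3 and 0 in N2, *hsf-1FL* and *hsf-1(sy441)* when only the libraries compared were fitted, with fewer libraries to estimate the spread. With a library left out, they numbered 1 to 5 in N2, 4 to 5 in the full-length line, 4 to 5 in the CTD line and 2 to 5 in the mutant. No share of all genes called lower is given for these fits. Against N2, the genes called in *hsf-1(sy441)* numbered 2 untreated and 1 heat-shocked, both at a threshold of 0.05 and with DESeq2, and 0 to 1 in either with a library left out. DESeq2 called 6.02% (untreated) and 5.47% (heat-shocked) of all genes higher. The share of all genes at 0.05, or with a library left out, is not given for these comparisons. Those counts cannot be set beside all genes. The replicate block changed no call among the 5 genes.

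The relatives called in N2, the full-length line, the CTD line and the mutant numbered 1, 3, 4 and 3 at 0.05 (where 1.98%, 3.21%, 3.36% and 5.3% of all genes were called), 1, 4, 4 and 3 with DESeq2, 8, 12, 11 and 7 with DESeq2 and surrogate variables, 5, 6, 6 and 5 with edgeR and surrogate variables, and 1, 7, 6 and 4 with the replicate block within genotype. The additive replicate block called 2 in *hsf-1(sy441)*. Without a filter beyond 1 count, 1 was called in N2 and 1 in *hsf-1CTD*, and with only the libraries compared 3 in *hsf-1CTD* and 0 in the mutant. A library left out gave 0 to 1, 0 to 1, 0 to 2 and 0 to 5.

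The transporter genes called numbered 5, 13, 13 and 12 at 0.05, 3, 13, 13 and 13 with DESeq2, 23, 24, 28 and 27 with DESeq2 and surrogate variables, 13, 15, 16 and 19 with edgeR and surrogate variables, and 9, 18, 18 and 17 with the replicate block within genotype. The additive replicate block called 2 in N2 and 6 in *hsf-1(sy441)*. Without a filter beyond 1 count, 2 were called in N2, 10 in *hsf-1CTD* and 4 in the mutant. With 10 counts in every library, 2 were called in *hsf-1CTD* and 0 in the mutant, with only the libraries compared 0 in *hsf-1(sy441)*, and with upper quartile scaling 1 there. The shares of all genes that DESeq2, the surrogate variables and the block within genotype called are given in the report. For the additive block, the filters, the scalings and the fits of only the libraries compared, no such share is given. The same holds for fits with a library left out, other than heat-shocked *hsf-1(sy441)* replicate 3. Those counts of relatives and transporter genes cannot be set beside all genes. A library left out gave 0 to 2, 0 to 10, 1 to 11 and 0 to 14. The cause of these changes was not tested.

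Only differences of the transgenic lines from N2 that were within their standard error, or close to it, turned. In untreated *hsf-1FL*, *rhr-1* had -0.094 with edgeR and -0.10 with DESeq2 and surrogate variables, *gem-1* -0.13 and -0.14 likewise, and *glt-1* 0.0068 with RLE scaling and 0.0069 with DESeq2. In heat-shocked *hsf-1FL*, *nrf-6* had -0.32 and -0.32 with surrogate variables. In untreated *hsf-1CTD*, *F16B4.4* had -0.062 with library size only. With a library left out, untreated *hsf-1FL* had -0.17 to 0.20 for *glt-1*, -0.29 to 0.31 for *gem-1* and -0.43 to 0.068 for *F16B4.4*, and heat-shocked *hsf-1FL* -0.37 to 0.13 for *F16B4.4*. Likewise *hsf-1CTD* had -0.019 to 0.22 for *gem-1* and -0.18 to 0.31 for *F16B4.4* untreated, and -0.45 to 0.044 for *F16B4.4* heat-shocked.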
